A study of Mus musculus with 34 samples.

Results

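Transcripts of 9 myogenic precursor regulators, Pax3, Pax7, Lbx1, Met, Six4, Eya1, Myf5, Myod1 and Myog, were compared between limb buds lacking Hnrnpk in the mesenchyme and wild-type limb buds. The 9 genes were taken by symbol from the 22040 protein-coding genes of the mRNA-seq table, and all of them were found there. Limb buds were collected from mouse embryos at E11.5. The CKO group carried Prrx1-Cre together with Hnrnpk fl/fl, and the WT group was labelled wild-type without further detail of its alleles. Each group had 3 libraries, named here WT1 to WT3 and CKO1 to CKO3 by their replicate number. Prrx1-Cre is active in the limb mesenchyme, so other cells of the limb bud keep an intact Hnrnpk gene.

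Limb muscle does not come from the limb mesenchyme. Its precursors leave the dermomyotome of the somites, migrate into the limb bud and only there turn on the muscle programme. Pax3 marks these migrating cells, the receptor Met lets them detach and follow its ligand Hgf, and the homeobox factor Lbx1 guides their route in the limb. Six4 and its coactivator Eya1 act upstream of Pax3 and of the myogenic genes. Myf5 and Myod1 commit the cells to the muscle fate, Myog starts their differentiation, and Pax7 marks a later precursor pool. Several of these genes are also used elsewhere in the embryo, Pax3 in neural crest and neural tube among other places, and in whole limb buds fewer cells of a type cannot be told apart from less RNA per cell.

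Hnrnpk, the targeted gene, was at 193, 195 and 185 FPKM in WT1, WT2 and WT3 and at 127, 142 and 135 FPKM in CKO1, CKO2 and CKO3. FPKM are fragments scaled by exon length, so levels can be set side by side between genes. They were also scaled per library, by a size that was not the plain read total, since in CKO2 and CKO3 it was below the reads recovered on the listed genes. Every CKO value of Hnrnpk lay below every WT value, a log2 fold change of -0.50 (SE 0.13, n = 3 and 3) with a limma adjusted p of 0.334, or 0.0575 with the replicate number as a block. Its exons share 330 bases with Rmi1 on the opposite strand. The loxP sites flank only some exons of Hnrnpk, while these FPKM cover all of them, so reads on the other exons still count. The paper reported an efficient loss of Hnrnpk in CKO limb buds by western blot and qPCR. The libraries held 17140869 to 24624434 reads on the listed genes, as recovered from the FPKM values and exon lengths. The haemoglobin genes took 11.7% to 32.4% of the summed FPKM of a library. WT1 stood apart from WT2 and WT3 in the muscle genes. Members and lists whose direction or size depended on WT1 are therefore also given without it. Leaving out WT1 alone keeps CKO1, so replicate number 1 is then in CKO only.

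None of the members passed an adjusted p under 0.05 in the comparison of CKO with WT (limma on log2(FPKM + 0.1), Benjamini-Hochberg over all 12305 genes whose mean reached 0.5 FPKM). In the same fit 0.0650% of all tested genes passed, which is 8 genes, and 0.0569% passed as higher in CKO. Of the 9 members, 8 entered the test and Pax7 did not, because its mean was under 0.5 FPKM. All 8 tested members had a log2 fold change above 0, against 50.9% of all tested genes, and their median was 0.40 against 0.005 over all tested genes. Without WT1 the median was 0.22 with Myog below 0, and with replicates 2 and 3 alone it was 0.17. The 8 members are not separate observations. Over the libraries, Myf5, Myod1 and Myog correlated with each other at 0.86 to 0.94 (Pearson). Pax3, Six4 and Eya1 did so at 0.89 to 0.97. The largest differences were those of Myod1 (0.68), Myog (0.65), Met (0.50) and Myf5 (0.47), and the smallest that of Eya1 (0.06). Met alone had an unadjusted p under 0.05, in a fit where 8.31% of all genes did and 2.84% were higher in CKO. Met and Myod1 were the members whose CKO values all lay above every WT value, which 5.63% of all tested genes also did. No member passed the study's own rule of a fold change over 2 with an unadjusted p under 0.05, which 0.666% of tested genes passed here.

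**Figure D1:**
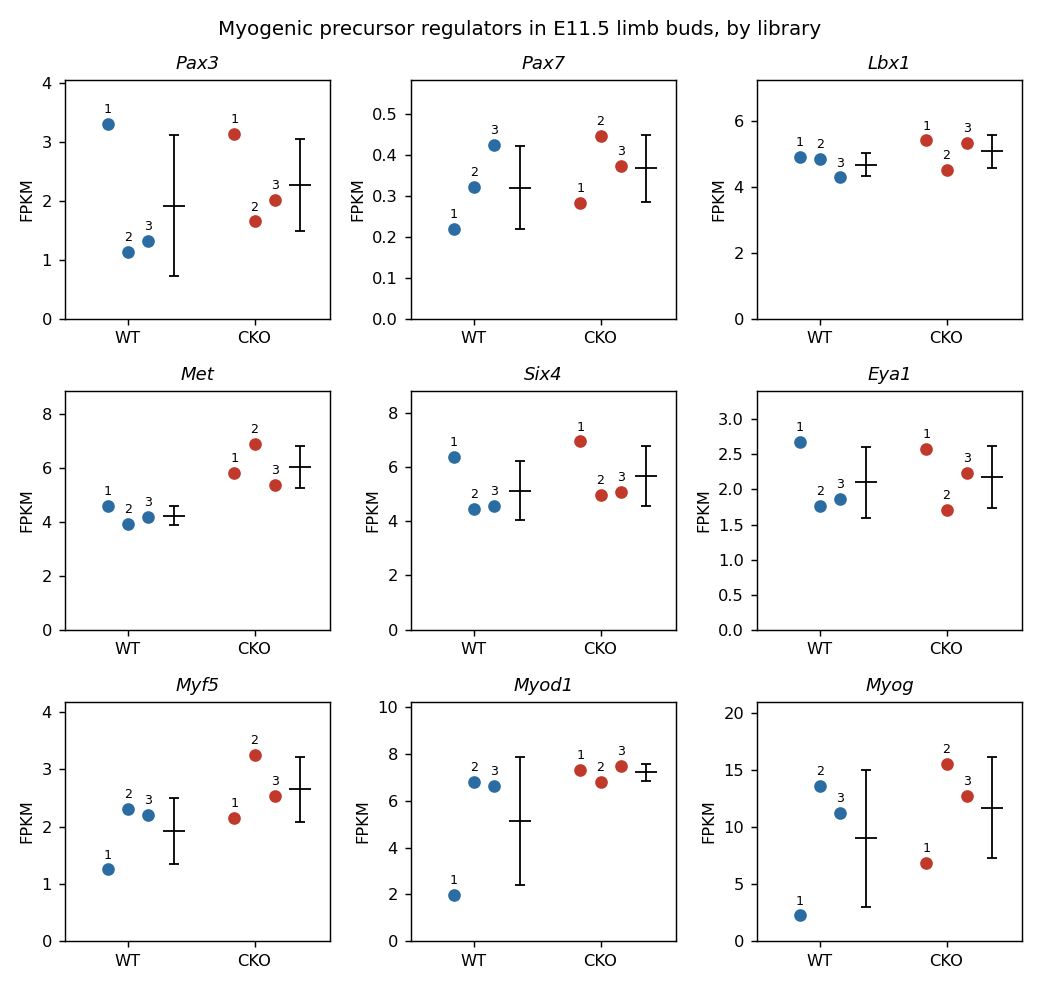
FPKM of the 9 members in each library, with WT in blue and CKO in red, the replicate number above each point, and the mean with its SD in black (n = 3 and 3). Met is higher in every CKO library than in any WT library, while the spread of Myod1 and Myog in WT comes from replicate 1, at 1.97 and 2.23 FPKM.

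The summed level of the 9 members was 27.5, 39.1 and 36.6 FPKM in WT1, WT2 and WT3. It was 40.5, 45.8 and 43.1 FPKM in CKO1, CKO2 and CKO3. The CKO sums all lay above the WT sums, by a small margin over WT2 and WT3. Myog made up 34.7% and 30.5% of that sum in WT2 and WT3 and 8.1% in WT1, where Six4 was the largest part with 23.2%.

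The myogenic bHLH factors, which bind E-boxes and drive muscle genes, were described first. Myf5 (ENSMUSG00000000435) lies on chr10:107482908-107486134 of GRCm38, on the minus strand. Myod1 (ENSMUSG00000009471) lies on chr7:46376474-46379099 and Myog (ENSMUSG00000026459) on chr1:134289989-134292548, both on the plus strand. No exon base of these or of the other members is shared with another annotated gene. Because Myf5, the early factor, and Myog, the late one, were low together in WT1, the sequences upstream of their starts are shown (RefSeq, GRCm38.p6, coding strand, 5′ to 3′). Capitals mark an E-box (CANNTG) and a MEF3 site (TCAGGTT), the latter being an element that Six4 can bind. The windows are chr1:134289754-134289988 (plus strand) and chr10:107486135-107486384 (minus strand).
Myog upstream: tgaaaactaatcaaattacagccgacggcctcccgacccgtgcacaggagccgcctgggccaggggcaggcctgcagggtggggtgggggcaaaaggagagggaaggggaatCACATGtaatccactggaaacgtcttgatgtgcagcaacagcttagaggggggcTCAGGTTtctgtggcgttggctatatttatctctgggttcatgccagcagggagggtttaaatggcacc
Myf5 upstream: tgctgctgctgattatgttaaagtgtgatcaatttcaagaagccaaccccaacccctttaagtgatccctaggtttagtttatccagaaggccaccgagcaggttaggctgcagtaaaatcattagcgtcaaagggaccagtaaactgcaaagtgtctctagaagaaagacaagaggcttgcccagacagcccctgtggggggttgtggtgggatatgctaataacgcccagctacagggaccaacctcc
The Myog window, from -250 to -16, holds 1 E-box at -138 to -133 and 1 MEF3 site at -84 to -78, which do not overlap. Positions are counted from the RefSeq start, and both strands were searched. The bases between the window and that start were left out, so a site there would not be counted. In the same window of all 32851 RefSeq promoters, 64.1% hold an E-box and 3.29% a MEF3 site. The Myf5 window holds neither motif, where 66.2% and 3.49% of promoters do. Sequence outside the windows was not searched. Whether these motifs bear on the low levels in WT1 was not tested. A strict form of the MEF2 consensus had no match in either window, which does not say that a MEF2 site is absent, and the Myog window holds the A/T-rich run ctatatttat, which is known as one. Of the 9 members, 5 were in the RefSeq promoter table, Met, Pax7 and Six4 being the others, and Pax3, Lbx1, Myod1 and Eya1 were not.

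Myod1 was at 1.97, 6.80 and 6.63 FPKM in WT1, WT2 and WT3 (5.13 ± 2.74, SD, n = 3). In CKO1, CKO2 and CKO3 it was at 7.33, 6.82 and 7.50 FPKM (7.22 ± 0.356, SD, n = 3). The CKO libraries were close to each other and just above WT2 and WT3, and WT1 was far below all of them. The log2 fold change was 0.68 (SE 0.43, 95% interval -0.32 to 1.67), with a limma adjusted p of 0.739. Without WT1 it was 0.10 with a limma adjusted p of 0.827. The difference between libraries of the same replicate number was 1.85, 0.00 and 0.18 on the log2 scale for numbers 1, 2 and 3, so that number 1 carried nearly all of it.

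Myog was at 2.23, 13.6 and 11.2 FPKM in WT1, WT2 and WT3 (8.99 ± 5.98, SD, n = 3), and at 6.84, 15.5 and 12.7 FPKM in CKO1, CKO2 and CKO3 (11.7 ± 4.42, SD, n = 3). These values rest on 60, 486 and 364 recovered reads in WT and on 185, 444 and 452 in CKO. Both libraries of number 1 were the lowest of their group, and WT1 was lower than CKO1. The highest WT value was 6.10 times the lowest, and 6.14% of tested genes had a WT spread over 2 times. The log2 fold change of Myog was 0.65 (SE 0.64, 95% interval -0.85 to 2.15), with a limma adjusted p of 0.855, and it turned to -0.16 without WT1 (limma adjusted p of 0.917). Within the numbers the differences were 1.58, 0.19 and 0.18, each with CKO above WT.

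Myf5 was at 1.25, 2.31 and 2.20 FPKM in WT1, WT2 and WT3 (1.92 ± 0.581, SD, n = 3). Its CKO values were 2.15, 3.26 and 2.54 FPKM (2.65 ± 0.564, SD, n = 3). CKO1 lay inside the WT range and the other two above it, so the groups overlapped. CKO minus WT was 0.47 on the log2 scale (SE 0.26, 95% interval -0.14 to 1.08), with a limma adjusted p of 0.703, and 0.20 without WT1 (limma adjusted p of 0.776). CKO exceeded WT within every number, by 0.73, 0.48 and 0.20.

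Pax3, Six4 and Eya1 followed another order of libraries, in which number 1 was the highest of its group in both genotypes. Pax3 (ENSMUSG00000004872, chr1:78101267-78197134, minus strand), the paired-box factor of migrating precursors, was at 3.30, 1.13 and 1.32 FPKM in WT1, WT2 and WT3 (1.92 ± 1.20, SD, n = 3). It was at 3.14, 1.65 and 2.01 FPKM in CKO1, CKO2 and CKO3 (2.27 ± 0.778, SD, n = 3). The number 1 libraries were nearly equal, and in numbers 2 and 3 CKO was above WT. The log2 fold change was 0.34 (SE 0.40, 95% interval -0.60 to 1.27), with a limma adjusted p of 0.876. Without WT1 it was 0.79, with an unadjusted p of 0.0238 and a limma adjusted p of 0.357. With replicates 2 and 3 alone, it was 0.54 with a limma adjusted p of 0.0471, in a fit where 15.0% of all genes passed and 7.05% passed as higher. In that fit Met, Pax3 and Myf5 had an unadjusted p under 0.05, as 29.0% of all genes did, and 14.5% were higher in CKO.

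Six4 (ENSMUSG00000034460, chr12:73099609-73113456, minus strand), a homeobox factor, was at 6.37, 4.45 and 4.56 FPKM in WT1, WT2 and WT3 (5.13 ± 1.08, SD, n = 3). In CKO1, CKO2 and CKO3 it was at 6.94, 4.98 and 5.09 FPKM (5.67 ± 1.10, SD, n = 3). The groups overlapped, yet CKO was above WT by a like amount within each number, 0.12, 0.16 and 0.15 on the log2 scale. On that scale the fitted change was 0.14 (SE 0.19, 95% interval -0.30 to 0.59), with a limma adjusted p of 0.889, and it ranged from -0.01 to 0.31 when 1 library was left out.

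Eya1 (ENSMUSG00000025932, chr1:14168954-14310235, minus strand), a coactivator of Six4 and its relatives, was at 2.68, 1.76 and 1.87 FPKM in WT1, WT2 and WT3 (2.1 ± 0.504, SD, n = 3). Its CKO values were 2.58, 1.71 and 2.24 FPKM (2.18 ± 0.439, SD, n = 3). No order of the genotypes was visible, with a log2 fold change of 0.06 (SE 0.22, 95% interval -0.45 to 0.57) and a limma adjusted p of 0.966. Its sign turned under 4 of the 19 other settings.

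**Figure D2:**
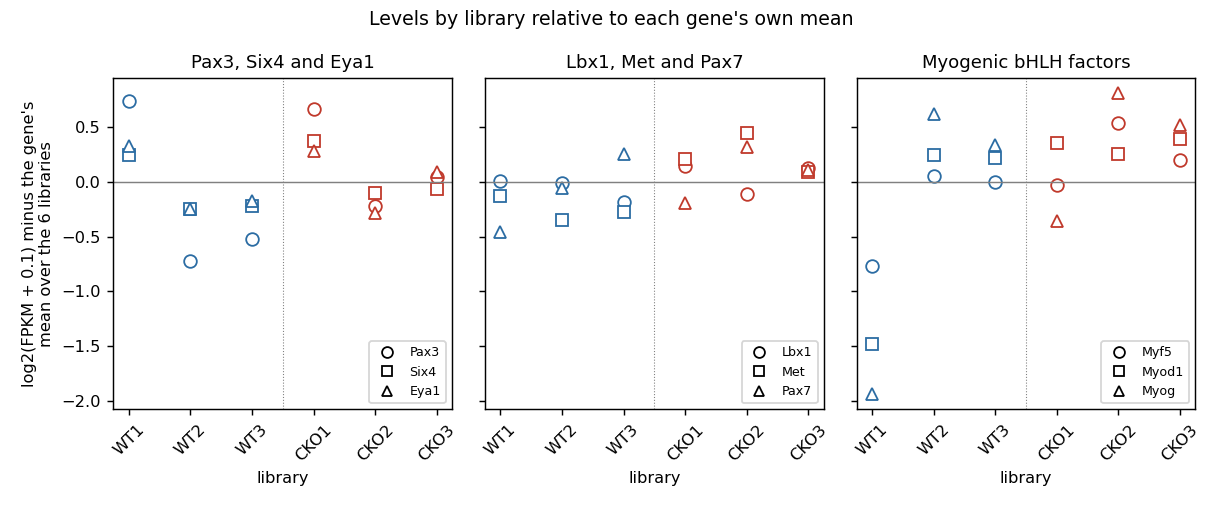
log2(FPKM + 0.1) of each member in each library minus the gene's mean over the 6 libraries, with WT in blue, CKO in red and a marker shape per gene. Pax3, Six4 and Eya1 are above their mean in WT1 and CKO1, whereas Myf5, Myod1 and Myog are lowest in WT1, at -0.77, -1.48 and -1.94.

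The ratio of Pax3 to Myog, precursor factor to differentiation factor, gave the opposed order of the libraries in 1 value. It was 1.48, 0.0835 and 0.118 in WT1, WT2 and WT3 and 0.460, 0.107 and 0.158 in CKO1, CKO2 and CKO3. Number 1 stood above numbers 2 and 3 in both groups, and WT1 above CKO1. The ratio of Myog to Myod1 was 1.13, 2.0 and 1.68 in WT and 0.932, 2.27 and 1.69 in CKO, lowest in number 1 of each group. The genotypes overlapped in both ratios.

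Lbx1 (ENSMUSG00000025216, chr19:45232684-45235812, minus strand), the homeobox factor that steers the migrating cells, varied least among the libraries. It was at 4.89, 4.83 and 4.28 FPKM in WT1, WT2 and WT3 (4.67 ± 0.335, SD, n = 3) and at 5.40, 4.50 and 5.32 FPKM in CKO1, CKO2 and CKO3 (5.07 ± 0.499, SD, n = 3). WT1 did not stand apart in Lbx1, unlike in Pax3 and in the bHLH factors. Its log2 fold change was 0.12 (SE 0.13, 95% interval -0.19 to 0.42), with a limma adjusted p of 0.867. The interval of the fold ran from 0.878 to 1.34.

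Pax7 (ENSMUSG00000028736, chr4:139737062-139833528, minus strand), the factor of the later precursor pool, was the lowest member. It was at 0.218, 0.321 and 0.423 FPKM in WT1, WT2 and WT3 (0.320 ± 0.102, SD, n = 3) and at 0.283, 0.446 and 0.372 FPKM in CKO1, CKO2 and CKO3 (0.367 ± 0.0815, SD, n = 3). These levels rest on 23 to 54 recovered reads per library. The groups overlapped, with a difference of 0.17 on the log2 scale and an exact two-sided permutation p of 0.6, where 0.1 is the smallest p that 3 against 3 libraries allow.

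Met (ENSMUSG00000009376, chr6:17463800-17573980, plus strand), the receptor tyrosine kinase of Hgf, had the lowest p of the members. It was at 4.60, 3.93 and 4.17 FPKM in WT1, WT2 and WT3 (4.23 ± 0.342, SD, n = 3). In CKO1, CKO2 and CKO3 it was at 5.82, 6.90 and 5.38 FPKM (6.03 ± 0.781, SD, n = 3). All CKO values were above all WT values, and WT1 was the highest of the WT libraries. The log2 fold change was 0.50 (SE 0.14, 95% interval 0.17 to 0.82), a fold of 1.41, with an unadjusted p of 0.00785 and a limma adjusted p of 0.382. The exact two-sided permutation p was 0.1, the smallest possible. Within the numbers CKO was above WT by 0.33, 0.80 and 0.36, and without WT1 the log2 fold change was 0.56 (limma adjusted p of 0.257). Met passed an adjusted p under 0.05 in a voom fit on recovered reads with the replicate block, at 0.53 with an adjusted p of 0.0124, where 5.32% of all genes passed and 2.1% passed as higher. In that fit 4 members had an unadjusted p under 0.05, against 21.3% of all genes, and 10.9% were higher. Without WT1, 0.0569% of genes passed an adjusted p under 0.05, all of them higher in CKO. Met and Pax3 were then the members at an unadjusted p under 0.05, against 11.3% of all genes, and 3.78% were higher.

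With the replicate number as a block in limma, none of the members passed an adjusted p under 0.05, where 2.81% of all tested genes did and 1.13% as higher in CKO. Met came nearest, with an adjusted p of 0.0576, followed by Myog with 0.125, Myf5 with 0.127 and Myod1 with 0.188. These 4 had an unadjusted p under 0.05, in a fit where 18.4% of all genes did and 8.14% were higher in CKO. The intervals of Myog and Pax3 narrowed most, to 0.19 to 1.11 for Myog and to -0.03 to 0.70 for Pax3. Of the 4, Myog turned its sign without WT1, in a fit that keeps CKO1. With replicates 2 and 3 alone the log2 fold change of Myog was 0.19.

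**Figure D3:**
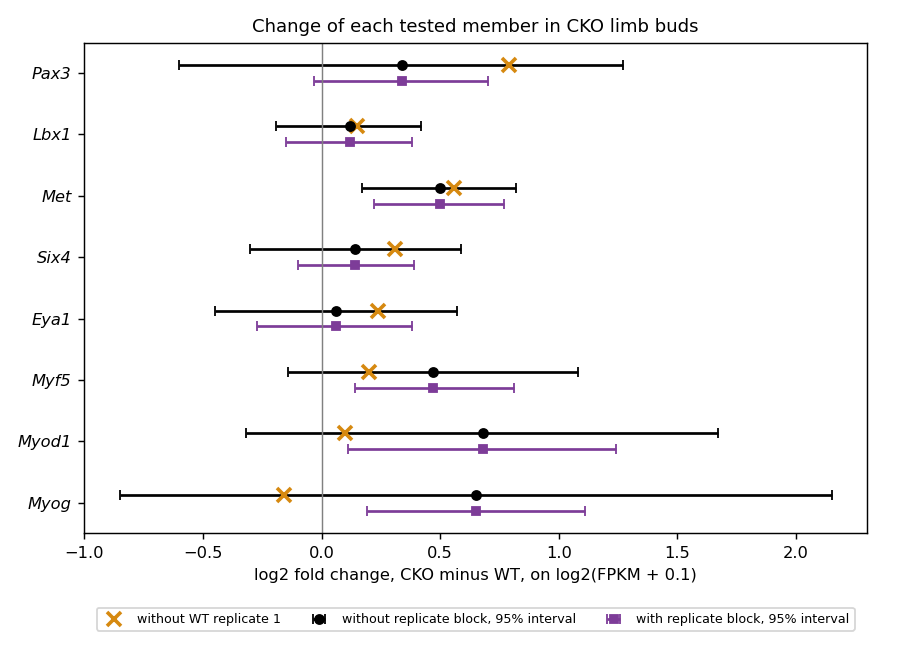
log2 fold change of the 8 tested members, CKO minus WT, with 95% intervals without (black) and with (purple) the replicate number as a block, and the value without WT replicate 1 as a cross. Without the block only the interval of Met, 0.17 to 0.82, lies above 0, and without WT1 Myog and Myod1 lie at -0.16 and 0.10.

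Genes of the migration route were read next, 9 genes of ligands, receptors and adhesion, all of which were tested. None passed an adjusted p under 0.05, 4 were above 0 and 5 below, and the median was -0.04. Hgf, the ligand of Met, named here after its values were seen, was at 3.32, 0.878 and 1.26 FPKM in WT1, WT2 and WT3 and at 2.23, 1.61 and 1.06 FPKM in CKO1, CKO2 and CKO3. It was highest in number 1 of both groups, and the groups overlapped, with a log2 fold change of 0.01 and a limma adjusted p of 0.997. Cxcr4, the receptor of Cxcl12 on migrating precursors, was at 2.70, 2.77 and 2.51 FPKM in WT1, WT2 and WT3. In CKO1, CKO2 and CKO3 it was at 3.64, 3.78 and 3.80 FPKM, above all WT values. Its log2 fold change was 0.48 with a limma adjusted p of 0.340, or 0.0674 with the block. Itga4, an integrin subunit, was also higher in all CKO libraries, from 3.04 to 4.17 FPKM against 2.42 to 2.79 FPKM, with a log2 fold change of 0.47 and a limma adjusted p of 0.483. Epha4, a receptor of ephrins, and Cxcl12 were the highest of these genes and overlapped between groups, with log2 fold changes of 0.05 and -0.16 (limma adjusted p of 0.932 and 0.822).

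The list of related Six-family, Eya and Dach genes held 8, of which 7 were tested, 4 above and 3 below 0, with a median of 0.02, or 3 above and 4 below and -0.10 without WT1. Eya3, the highest of them, had a log2 fold change of 0.07 (limma adjusted p of 0.908). Six5, a relative of Six4, was at 10.3, 13.5 and 12.2 FPKM in WT1, WT2 and WT3 and at 9.22, 6.72 and 7.82 FPKM in CKO1, CKO2 and CKO3. All its CKO values were below all WT values, which held for 8.86% of tested genes, with a log2 fold change of -0.60 and a limma adjusted p of 0.358, which became 0.0438 with the block. Eya4 was likewise lower in every CKO library, from 2.23 to 2.82 FPKM against 3.41 to 4.69 FPKM, with a log2 fold change of -0.62 and a limma adjusted p of 0.358, or 0.0534 with the block.

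The 14 partners of the myogenic factors, which include Mef2 factors and E-proteins, gave 12 tested genes, 9 above and 3 below 0, with a median of 0.09 and none passing. Without WT1 the list had 4 above and 8 below 0, with a median of -0.07. With replicates 2 and 3 alone it had 7 above and 5 below, with a median of 0.03. Tcf3, the E-protein that pairs with Myod1, and Meox2, a homeobox factor of limb muscle precursors, were the highest. Their log2 fold changes were -0.11 and -0.07 (limma adjusted p of 0.876 and 0.959).

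Of the genes that myoblasts and muscle fibres use, 16 of the 17 tested were lowest in WT1, as Myog was, and Des was lowest in CKO1. The list held 25 genes, all 17 tested were above 0, the median was 0.57 and none passed an adjusted p under 0.05. Their summed level was 13.7, 57.6 and 57.1 FPKM in WT1, WT2 and WT3 and 32.1, 91.5 and 73.5 FPKM in CKO1, CKO2 and CKO3. In this sum, of which Actc1 and Mylpf are a large part, WT1 was the lowest library and CKO1 the next. Actc1, the actin of early sarcomeres, was at 2.37, 20.4 and 20.1 FPKM in WT and at 9.73, 35.6 and 25.6 FPKM in CKO, a log2 fold change of 1.05 with a limma adjusted p of 0.815. Mylpf, a fast myosin light chain, was at 2.56, 6.69 and 8.20 FPKM in WT and at 3.49, 15.2 and 10.8 FPKM in CKO, a log2 fold change of 0.67 with a limma adjusted p of 0.837. CKO exceeded WT within each number for both genes. With the block 4 of the 17 passed, all higher, in a fit where 2.81% of all genes passed and 1.13% passed as higher. They were Tnnc1, Myl1, Actc1 and Mylpf, with limma adjusted p of 0.00427, 0.0185, 0.0266 and 0.0340. Without WT1 the same list had 10 genes above and 7 below 0 and a median of 0.03, and none passed, and without CKO1 the median was 0.91. With replicates 2 and 3 alone, 15 were above 0, against 51.0% of all genes, the median was 0.34 and 6 passed, all higher, in a fit where 7.05% of all genes passed as higher.

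**Figure D4:**
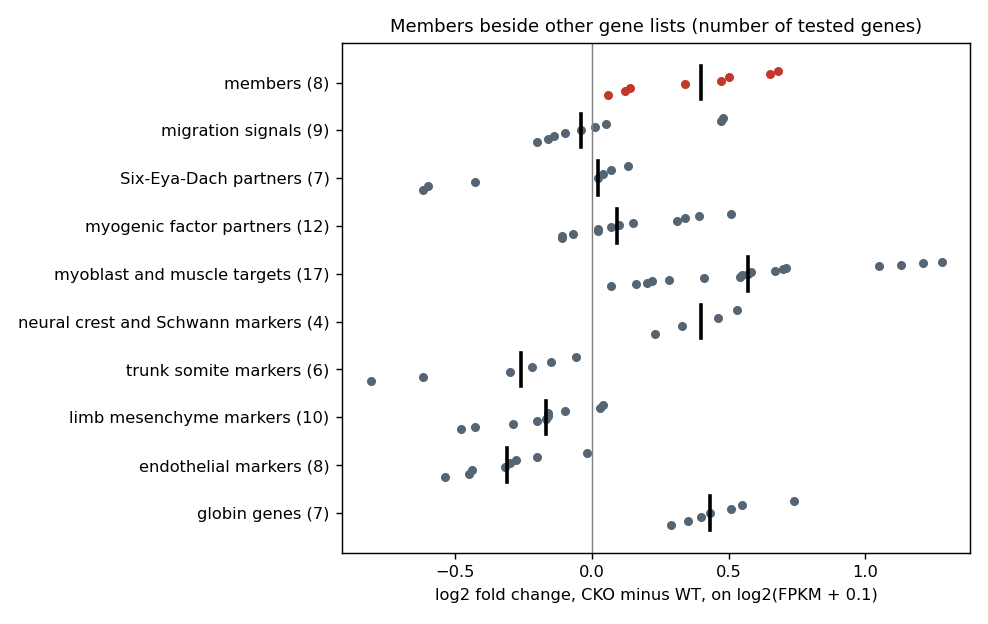
log2 fold change, CKO minus WT, of the tested genes of each list, with 1 point per gene, the members in red, the list median as a black bar and the number of tested genes in brackets. The members have a median of 0.40 and the muscle targets of 0.57, while the migration signals lie around 0 with a median of -0.04.

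Markers of other cells were read beside the members, and their part in these results was not tested. The 10 markers of limb mesenchyme summed to 330 to 342 FPKM in WT and to 277 to 312 FPKM in CKO, without overlap. Of these genes 2 were above 0 and 8 below, with a median of -0.17. Only 1 of them was lower in every CKO library than in any WT library, as 8.86% of tested genes were. The 8 neural crest and Schwann markers summed to 4.04, 10.4 and 10.2 FPKM in WT1, WT2 and WT3 and to 7.81, 12.3 and 10.4 FPKM in CKO1, CKO2 and CKO3. They were lowest in WT1 as the bHLH factors were, and opposite to Pax3, which neural crest also uses. All 4 tested of them were above 0, with a median of 0.40, which ranged from -0.08 without WT1 to 0.65 without WT2. The 10 trunk somite markers summed to 18.0 to 24.3 FPKM in WT and to 16.4 to 18.2 FPKM in CKO, with Ripply1 at 0 in every library. All 6 tested were below 0, with a median of -0.26, which ranged from -0.59 without WT1 to -0.10 without WT2. The 10 neural tube markers summed to 4.54 to 6.07 FPKM in WT and to 3.42 to 4.66 FPKM in CKO, with Neurog2 at 0 in every library. Both tested genes were below 0, and 1 of them was above 0 on leaving out WT2, WT3 or CKO1. No gene of these lists passed an adjusted p under 0.05 in the fit of all 6 libraries without the block. With replicates 2 and 3 alone, 2 limb mesenchyme and 2 trunk somite markers passed as lower and 1 neural crest marker as higher. In that fit 15.0% of all genes passed, and 7.05% passed as higher.

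The sums of the remaining lists overlapped between the genotypes, as did those of the neural crest, trunk somite and neural tube markers. The 10 ectoderm markers summed to 49.7 to 82.1 FPKM in WT and 55.0 to 83.9 FPKM in CKO, and the 8 macrophage markers to 18.0 to 26.7 FPKM and 18.9 to 34.1 FPKM. The 8 endothelial markers summed to 26.3 to 36.7 FPKM and 18.0 to 28.8 FPKM, all of them below 0 with a median of -0.31, which was -0.13 with 3 above 0 without CKO1 and 0.02 with 5 above 0 with replicates 2 and 3 alone. The 7 globin genes summed to 37551 to 63707 FPKM in WT and 30642 to 142363 FPKM in CKO, all above 0 with a median of 0.43, which ranged from 0.09 without CKO2 to 1.02 without CKO1. The ectoderm median was 0.15 with 8 of 10 tested above 0, and it ranged from -0.02 with 5 above 0 without WT1 to 0.28 without CKO1. The macrophage median was 0.21 with 6 of 7 tested above 0, and it ranged from -0.06 without CKO2 to 0.49 without CKO1.

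Among the members, the order of mean FPKM in WT was Myog, Myod1, Six4, Lbx1, Met, Eya1, Myf5, Pax3 and Pax7. The ranges over libraries of neighbours in this order overlapped, except between Met and Eya1 and between Pax3 and Pax7. In CKO the order was Myog, Myod1, Met, Six4, Lbx1, Myf5, Pax3, Eya1 and Pax7, with gaps between Lbx1 and Myf5 and between Eya1 and Pax7. Met thus stood behind Six4 and Lbx1 in WT and ahead of them in CKO, among neighbours whose ranges overlapped.

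Genes were also ranked by the Pearson correlation over the 6 libraries with the mean standardised log2 level of Pax3, Lbx1, Myf5, Myod1 and Myog. This mean joins members of opposed library order, since Pax3 ran against Myog (-0.78), Myf5 (-0.57) and Myod1 (-0.54), so it follows none of them alone. The most alike were Rbm20 (0.990), Flot1 (0.978), Tssk4 (0.976), Zfp64 (0.975) and Tubg2 (0.974), out of 12297 genes of which 77 exceeded 0.9. The mean was lowest in WT1 (-0.88) and above 0 in all 3 CKO libraries. Rbm20, the closest, was at 0.539, 0.831 and 0.783 FPKM in WT1, WT2 and WT3 and at 1.23, 1.02 and 1.17 FPKM in CKO1, CKO2 and CKO3. All 5 had their lowest value in WT1, which comes with their choice, since the mean they follow was lowest there. The 6 libraries are those of the comparison itself.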

How the data were processed

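RNA was extracted by the authors from E11.5 limb bud cells and made into stranded mRNA libraries, with 3 biological replicates per genotype, and how embryos were pooled is not given in the sources used here. The authors deposited FPKM for 22040 genes. The submitters' processing notes name cutadapt 2.5, HISAT2 2.1.0, featureCounts 1.6.3 and the build mm10, and whether counting used strand is not stated. Reads were recovered from the FPKM and merged exon lengths (GENCODE on GRCm38, 99.5% of genes found), and 93.7% to 94.1% of low values came out whole within 0.1 read.

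CKO was compared with WT by limma 3.58.1 in R 4.3.3 (mean-variance trend) on log2(FPKM + 0.1), so folds of low genes are understated, with genes of a mean FPKM of at least 0.5 and an adjusted p threshold of 0.05. The script was checked on simulated data with independent noise and no effect of the replicate number. That check does not say whether a block is needed. The main fit had no block, and the replicate numbers were used as a block in alternative fits. Same-numbered WT and CKO libraries deviated together, with correlations of 0.64, 0.44 and 0.27 for numbers 1, 2 and 3. These correlations set number 1 apart but did not separate numbers 2 and 3, as WT2 with CKO3 gave 0.49 and WT3 with CKO2 gave 0.31. The labels do not say what a number shares. The limma p-values set the difference between groups against the spread between these libraries, or against what the block leaves of it. Whether libraries differ by embryo, litter or pool is not given.

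The members and lists were chosen with earlier results of these data known. Named genes were the members, Hnrnpk, the 2 highest genes and those with an unadjusted p under 0.05 of each pathway list, and the 5 most alike genes, of which 1 gene of a pathway list is not reported here. Hgf, Des, Tnnc1, Myl1, Pax1, Ripply1, Neurog2 and Rmi1 were named after their values were seen. Samples of the other assays (chromatin accessibility, binding and contacts) were not analysed here.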

Additional observations from a re-analysis of the deposited data

How the results depend on the processing

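Over 19 alternatives, Met, Pax3, Lbx1, Myf5 and Myod1 kept a log2 fold change above 0. Eya1 turned to -0.04 when FPKM were scaled without the globin genes, which moved the median of all genes to -0.10, and ranged from -0.07 to 0.24 with 1 library left out (-0.05 without WT replicate 2, -0.01 without WT replicate 3, -0.07 without CKO replicate 1). Six4 was -0.01 without CKO replicate 1 (range -0.01 to 0.31), and Myog -0.16 without WT replicate 1 (range -0.16 to 1.12). The median of the members was 0.27 with a pseudocount of 1, 0.17 with replicates 2 and 3 alone, with or without the replicate block, and 0.22 to 0.44 with 1 library left out. The count at an unadjusted p under 0.05 was 1, against 0 with scaling without the globin genes, 4 with the replicate block, 4 by voom with the block, 3 with replicates 2 and 3 alone, with or without the block, and 1 to 2 with 1 library left out. The count at an adjusted p under 0.05 was 0, against 1 by voom with the block (Met), 2 with replicates 2 and 3 alone, with or without the block (Met and Pax3), and 0 to 0 with 1 library left out. In limma the block put no member past the adjusted threshold, and outside them it did so for Six5, Pax1 and 4 muscle targets among the named genes and lists. The fit of replicates 2 and 3 with the block was added after seeing the data. The adjusted p ranged over the alternatives from 0.00134 to 0.999 for Met, from 0.0454 to 1.0 for Pax3 and from 0.125 to 1.0 for Myog. Over all genes 8 passed, against 346 with the block, 654 by voom with the block, 1851 with replicates 2 and 3 alone and 2280 with these and the block, 14 by quantile normalization, 4 with scaling without globin genes, and 1 to 23 with 1 library left out. Why these counts differ between the fits was not tested. At these depths, Pax7 with 23 to 54 reads per library is the member whose level is least certain.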

Other observations

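Pax1, listed here as a marker of the sclerotome, the somite part that forms vertebrae and no limb muscle, was chosen after its values were seen. Which cells of these limb buds held Pax1 RNA was not tested. Nor was it tested whether Pax1 RNA is particular to the sclerotome in this tissue. Pax1 was at 3.75, 4.29 and 4.07 FPKM in WT1, WT2 and WT3 and at 3.26, 1.55 and 2.26 FPKM in CKO1, CKO2 and CKO3. All CKO values were below all WT values, a log2 fold change of -0.81 with a limma adjusted p of 0.430, or 0.0414 with the replicate number as a block. The difference was thus in the other direction from that of the 8 tested members, which were above 0.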
